A study of Zea mays with 19 samples.

Results

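The small RNAs described here are the less common named families found in germinating maize embryos. A sequence was taken when the deposited table gave it a miRBase family name outside a set of 30 larger or separately treated families, such as miR156 and miR166, and its values were summed over all precursor entries that carry it. This rule found 63 of 536 listed sequences, on 105 of 782 table entries and in 33 families. Overlapping sequences of a family with equal values on every entry were counted once, which left 58 of 523. The rule uses names alone, but it was set with earlier results of these data known.

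Embryos were taken from Yu82, an inbred maize line that germinates early, and from Yu537A, an inbred line that germinates late; both descend from the population cultivar Yuzong5. The 6 groups of 3 biological replicates were Yu82 at 6 h and 53 h of germination, Yu537A at 6 h, 53 h and 78 h, and Yu537A with gibberellin (GA3, 400 mg/L) at 53 h, and each sample pooled the embryos of 5 seeds. The labels say that Yu537A seeds were pretreated with GA3 without naming the groups, and the series design names only the group called SGA_53h as treated, so Yu537A without that name is called untreated below. Each line is 1 inbred genotype, and 1 degradome library, a survey of the 5′ ends left by transcript cleavage, belongs to none of the groups.

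Plant microRNAs are cut from hairpin precursors by a Dicer-like enzyme, are mostly 21 or 22 nt long, and guide Argonaute proteins to transcripts that they pair with nearly in full. Families kept across flowering plants, such as miR394, usually have 1 conserved target family, and 22-nt families such as miR2118 and miR482 can start the production of phased secondary small RNAs from the transcripts they cut. In grasses miR2118 is best known from anthers, where it starts phased 21-nt RNAs from long non-coding transcripts, and in legumes it targets disease resistance genes of the NB-LRR class.

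Three-letter prefixes name the species of the miRBase entry to which the authors matched a sequence (zma for maize, osa for rice, gma for soybean, mtr for Medicago, ptc for poplar, ath for Arabidopsis, smo for Selaginella, han for sunflower, rgl for Rehmannia, tae for wheat, bdi for Brachypodium, ata for Aegilops), and each name is kept as deposited. All sequences come from the deposited table, are written 5′ to 3′ as DNA, and have the seed, bases 2 to 8, in capitals. The first pair is shown because it holds most counts of these families.
zma-miR394a-5p: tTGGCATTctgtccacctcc
han-miR3630-3p_L-1_1ss2GA: aTGGGAATctctctgatgctt

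The miR2118 and miR482 sequences are shown because the only difference between groups that passed the test lies among them, and because 1 of them shares only the family name.
zma-miR2118b: tTCCCGATgcctcccattccta
zma-miR2118d: tTCCTGATgcctcccatgccta
osa-MIR2118e-p3_2ss10CA18GT: tTCCCAATgactcccattcc
osa-MIR2118e-p3_2ss13TA19CT: gAAAAGAGagtcaaagagt
gma-miR482b-3p: tCTTCCCTacacctcccatacc

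The next sequences are shown because they lie in repeated stretches of the genome or in clusters of overlapping fragments.
smo-MIR1103-p3_2ss8CT18AT: gACCTCCTgggaagtcct
smo-MIR1103-p3_1ss10CT_1: gTGACCTCctgggaagtc
mtr-MIR2592bj-p3_2ss12TC19AT: aTTCCCACtgtccctgtct
mtr-MIR2603-p3_2ss9AC17AC: gTCCCTGCcctttgtaca
ptc-miR6478_R-1: cCGACCTTagctcagttggt
ptc-miR6478_R-2: cCGACCTTagctcagttgg
ath-miR8175_L-1R-1: aTCCCCGGcaacggcgcc
ath-miR8175_L-2: tCCCCGGCaacggcgcca
osa-miR5072_L-4: tCCCCAGCggagtcgcca
bdi-miR5054_1ss10TA: tCCCCACGgacggcgcca

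The remaining named sequences are shown because they were abundant, had a low p in 1 comparison or lead 1 of the family lists.
ptc-MIR2111b-p3_2ss1GT18CT: tGTCAGGAttgggtaatt
rgl-miR5139_L+1R+2: aAAACCTGgctctgataccact
tae-MIR1122a-p5_2ss19AG21AC: tACTCCCTctgttcctaagtc
osa-miR5082_R-1_1ss1TC: cGCGATGAtggccgcgcgggttc
ptc-MIR6424-p3_1ss2GC: tCGTGCCAcgctgtgtgcgtc

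The 63 sequences carried 50 different seeds. A set of 9 of these seeds, written CGACCTT for miR6478 and GTGACCT for a part of miR1103 for example, were shared by 22 sequences. A single seed crossed 2 families, CTTCCCT, which gma-miR482b-3p and a miR1507 sequence have in common. Only 1 of the 50 seeds also occurred in a named family outside this set.

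The total of listed counts ran from 42922 in replicate 3 of the early line at 53 h to 818717 in replicate 1 of the late line at 53 h. The smallest total listed for any sequence was 2 to 5 counts per library, so a 0 in the table means not listed and does not give an exact absence. Between 12 and 34 of the 58 sequences were listed in a library. In bulk embryos, fewer cells of a type and less RNA per cell cannot be told apart. The small RNAs hold no marker that defines embryo tissue, so the tissue label was not checked here.

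These families made up 1.42% of listed counts on average over the 18 libraries, from 0.746% to 2.76%. The share was 1.82% ± 0.560 (SD, n = 3) in the early line at 6 h and 2.23% ± 0.606 (SD, n = 3) at 53 h. In the late line it was 0.955% ± 0.136 at 6 h, 1.22% ± 0.418 at 53 h and 1.01% ± 0.248 at 78 h (SD, n = 3 each), and with GA3 1.31% ± 0.212 (SD, n = 3). Every early-line library at 6 h lay above every late-line library at 6 h, and at 53 h the lowest early-line share, 1.57%, lay just above the highest late-line share, 1.54%. Counting 1 entry per sequence in place of the sum over entries, the share was 3.46% and 4.35% in the early line at 6 h and 53 h, and from 1.55% to 2.36% in the late-line groups. The share is a sum over members and was not tested.

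The sequences differed in form from the other named families. Of the 63, 31 (49.2%) were 18 or 19 nt long, against 25 of 192 (13.02%) of the other named sequences and 0 of 281 candidates without a miRBase name. Of the lengths typical of plant microRNAs, 13 had 21 nt and 11 had 22 nt. The first base was T in 44.4% of them and in 57.3% of the other named sequences. Among their 105 entries, 53 (50.5%) had a hairpin shorter than 50 bases or a folding free energy above -15 kcal/mol, against 59 of 323 (18.3%) among the other named families. Maize names belonged to 3 of the 63 and to 95 of 192 of the others, and 5 of the 63 matched a miRBase sequence exactly, namely zma-miR394a-5p, zma-miR2118b, zma-miR2118d, gma-miR482b-3p and ata-miR9674a-5p. These are descriptions of the deposited annotation, without a test.

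**Figure D1:**
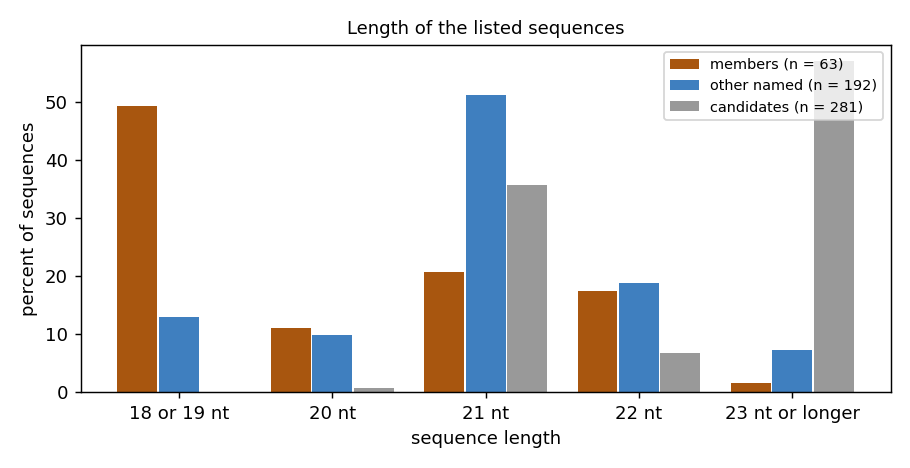
Length of the 63 members, the 192 other named sequences and the 281 candidates, as percent of the sequences of each class (vertical axis) by length (horizontal axis). The members have their highest bar at 18 or 19 nt (49.2%), where the candidates have none.

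Among the members, zma-miR394a-5p was by far the most abundant. miR394 is known in Arabidopsis to repress an F-box protein gene, LEAF CURLING RESPONSIVENESS, in the shoot meristem and the leaf. The table places it on 2 precursors, at chr4:157728375-157728496 and chr5:199240964-199241089, both on the plus strand, in a genome build that the sources used here do not name. It held 57.4% of the counts of all members on average, and with miR3630 73.9%.

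Levels are counts per 1e+06 counts (CPM), scaled with edgeR's TMM factors. In the early line zma-miR394a-5p measured 6997, 7269 and 13927 CPM at 6 h and 9280, 9223 and 4693 CPM at 53 h. In the late line it measured 6219, 5797 and 1788 CPM at 6 h, 6548, 10644 and 9317 CPM at 53 h, and 7401, 7409 and 6974 CPM at 78 h. With GA3 it measured 6910, 10242 and 12391 CPM. The late line at 6 h was the lowest group, at 4601 ± 2445 CPM (SD, n = 3), and it did not overlap the early line at 6 h, at 9398 ± 3925 CPM, or the late line at 53 h, at 8836 ± 2090 CPM.

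The late line at 6 h differed from the early line at 6 h by -1.03 on the log2 scale (SE 0.45), which missed the threshold with an adjusted p of 0.121 in edgeR's quasi-likelihood test with Benjamini-Hochberg adjustment over 221 sequences. With plain library totals in place of TMM the difference was -1.51 with an adjusted p of 0.0205. Without early-line replicate 3 it was -0.32 (adjusted p = 0.722), and without late-line replicate 3, in which miR394 held 21.05% of the members' counts, it was -0.52 (adjusted p = 0.388), both by edgeR. From 6 h to 53 h in the late line, the edgeR estimate was 0.94 (SE 0.44, adjusted p = 0.489). With GA3 it was 0.16 (SE 0.44, adjusted p = 1.00), and the sign turned when 1 of 3 single libraries was left out.

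han-miR3630-3p_L-1_1ss2GA, matched to a sunflower entry from which it differs, was next in abundance. It measured 1793, 1979 and 2948 CPM in the early line at 6 h and 2468, 1622 and 2185 CPM at 53 h. In the late line it measured 4207, 2655 and 1840 CPM at 6 h, 1212, 3040 and 4114 CPM at 53 h, and 1258, 1429 and 1621 CPM at 78 h, and with GA3 970 CPM in replicate 1, 2568 CPM in replicate 2 and 2345 CPM in replicate 3. All 3 libraries of the late line at 78 h lay below all 3 at 6 h, with a log2 difference of -1.01 (SE 0.47) and an adjusted p of 0.258 in edgeR's quasi-likelihood test. The entry lies at chr2:185596903-185596939 and chr7:114577671-114577732, both on the minus strand, with hairpins of 31 and 58 bases.

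**Figure D2:**
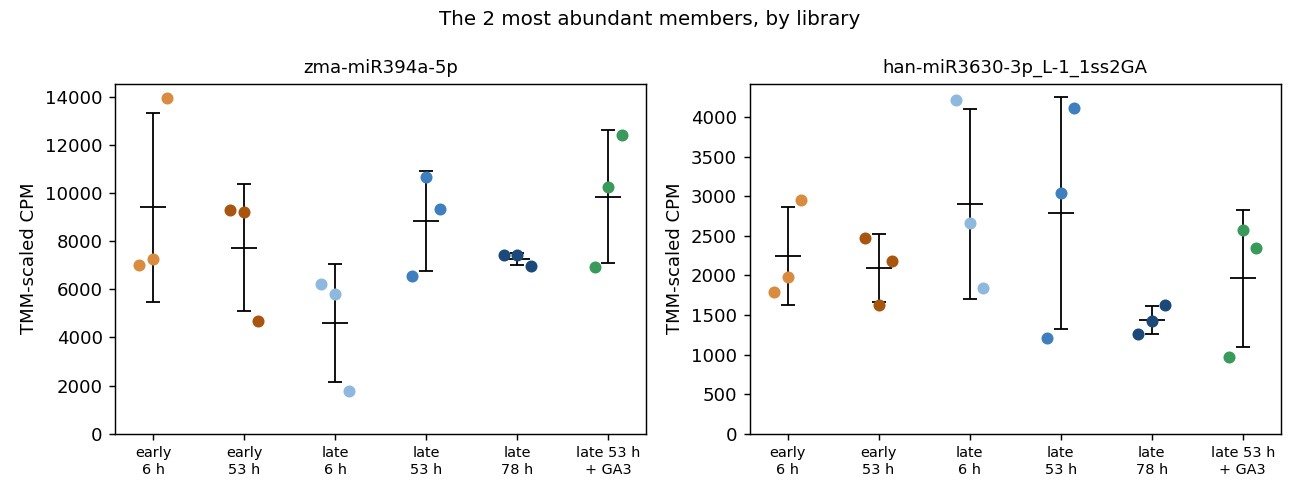
TMM-scaled CPM (vertical axis, from 0) of zma-miR394a-5p and han-miR3630-3p_L-1_1ss2GA in the 6 groups; points are libraries, bars the mean and SD of 3. The late line at 6 h has the lowest mean of miR394 (4601 CPM), and the late line at 78 h the lowest mean of miR3630 (1436 CPM).

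The filter on low counts kept 28 of the 58 sequences for testing, among 221 in all. A sequence could pass it through the group where it was high, so the counts below describe the tested sequences alone. Comparisons that share a group, such as the late line at 53 h, are not independent of each other.

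Between the lines, 1 of the 28 passed at 6 h and 1 at 53 h, in both cases zma-miR2118b, lower in the late line. Over all 221 sequences, 8.14% passed at 6 h and 10.4% at 53 h in either direction, and 5.43% and 4.52% were lower in the late line. An unadjusted p under 0.05 was reached by 5 of the 28 at 6 h (30.3% of all 221) and by 9 at 53 h (39.4% of all 221). The median log2 difference of the 28, late over early line, was -0.39 at 6 h, where that of all 221 was -0.53, and -0.77 at 53 h, where that of all was 0.00. With library totals the median of all 221 moved by -0.47 at 6 h and by -0.74 at 53 h.

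zma-miR2118b had counts of 43, 41 and 25 in the early line at 6 h and of 54, 56 and 25 at 53 h. In the late line it was listed at 0 in all 9 libraries without GA3 and at 0, 8 and 0 with GA3. Scaled, the early line held 165.1 ± 53.4 CPM at 6 h and 273.8 ± 19.4 CPM at 53 h (SD, n = 3 each), and all 6 early-line libraries, from 104 to 289 CPM, lay above every late-line library, the highest of which was at 20.02 CPM.

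The difference passed with an adjusted p of 0.0334 at 6 h and 0.0198 at 53 h in edgeR's quasi-likelihood test with Benjamini-Hochberg adjustment. The smallest count ever listed for this sequence was 8, and if listing began at 8 or lower, its level was at least 3.12-fold lower in the late line at 6 h and at least 6.41-fold lower at 53 h. The 6 h call was lost without any 1 of the 6 libraries compared, with adjusted p from 0.0808 to 0.130. The 53 h call was lost without early-line replicate 1 (adjusted p = 0.0643) or 3 (0.0581), or late-line replicate 1 (0.0605) or 2 (0.0686), all by edgeR. From 6 h to 53 h within the early line the edgeR estimate was 0.73 on the log2 scale (SE 1.37, adjusted p = 0.887), and with GA3 the single library with 8 counts gave an adjusted p of 0.984.

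The zma-miR2118b precursor lies at chr2:51342905-51343022 on the plus strand, and that of zma-miR2118d begins 74 bases after its end, at chr2:51343097-51343244. zma-miR2118d was listed in a single library, the early line at 53 h in replicate 1, with 14 counts. Against zma-miR2118b it has the substitutions C5T and T18G, counted from the 5′ end, so 20 of 22 bases are equal. The remaining relative, osa-MIR2118e-p3_2ss10CA18GT, has G6A and C10A over 20 bases and lies at chr10:118813746-118813919 on the minus strand. It was listed in the late line alone, at 53 h with 8 counts in replicate 1 and 13 in replicate 2.

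osa-MIR2118e-p3_2ss13TA19CT carries the same family name but equals zma-miR2118b at only 2 of 19 bases, and it lies on the chromosome 10 and chromosome 2 stretches described below. It was listed in 17 of 18 libraries. Its level was 615 ± 177 CPM in the early line at 53 h and between 141 and 224 CPM on average in the other 5 groups, and the early line at 53 h, from 412 to 737 CPM, did not overlap the late line at 53 h, from 116 to 175 CPM. The log2 difference, late over early line, was -2.02 (SE 0.95, adjusted p = 0.125 by edgeR).

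gma-miR482b-3p was listed in 4 libraries of 4 groups, with 29 counts in the early line at 53 h, 25 in the late line at 53 h, 65 at 78 h and 35 with GA3, and it has no place on the genome in the table. A family known with miR2118 as a trigger of phased small RNAs in anthers, miR2275, has no sequence among the 63, so it was not analysed here. The list of such families, drawn up by family name, holds 5 sequences, of which 3 were tested, namely zma-miR2118b, gma-miR482b-3p and osa-MIR2118e-p3_2ss13TA19CT, the last a member by name only. Among these 3, 1 was lower in late-line embryos at 6 h, against 5.43% of all 221, and 1 at 53 h, against 4.52%. The list of families known from legumes and other dicots to act on NB-LRR transcripts adds miR1507, and 4 of its 8 sequences were tested, with the same 3 among them, and 1 passed. In both lists the sequence that passed was zma-miR2118b.

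Among the 58 sequences, 10 (17.2%) were listed in the early line alone, 16 (27.6%) in the late line alone and 32 (55.2%) in both. Of the 184 other named sequences, 14 (7.61%) were listed in the early line alone and 45 (24.5%) in the late line alone. Among the 281 candidates without a miRBase name, the counts were 52 (18.5%) and 138 (49.1%). The early line has 6 libraries and the late line 12, with larger totals, so these shares are descriptions. A group of 4 members (6.90%) was listed in at least 4 of 6 early-line libraries and in no late-line library. So were 3 of the 184 (1.63%) and 11 of the 281 candidates (3.91%).

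These 4 were ptc-MIR2111b-p3_2ss1GT18CT, rgl-miR5139_L+1R+2, gma-MIR1507c-p3_2ss13TC19AC and tae-MIR1122b-p5_2ss18AG20GC, the last chosen with gma-MIR1507c after their values were seen. The group was picked for having no listed late-line count, and those tested passed the low-count filter through the early line alone. Their p-values between the lines therefore add no support for a difference. ptc-MIR2111b had counts of 0, 24 and 0 at 6 h and of 14, 11 and 61 at 53 h, where its adjusted p between the lines was 0.0879 in edgeR's test. miR2111 is known in legumes as a shoot-to-root signal that targets an F-box gene; the sequence here is an 18-nt one from the 3p arm of a poplar entry. rgl-miR5139_L+1R+2 had counts of 33, 9 and 28 at 6 h and of 0, 11 and 0 at 53 h, with an edgeR adjusted p of 0.108 at 6 h. gma-MIR1507c-p3_2ss13TC19AC had counts of 12, 14 and 8 at 6 h and of 10, 0 and 0 at 53 h (edgeR adjusted p = 0.113 at 6 h). Close relatives did not share this listing. gma-MIR1507c-p3_2ss11TC17AC was listed in 3 late-line libraries and gma-MIR1507c-p5_2ss13TC19AT in 2, both in no early-line library. tae-MIR1122a-p5_2ss19AG21AC was listed in 5 early-line and 4 late-line libraries.

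**Figure D3:**
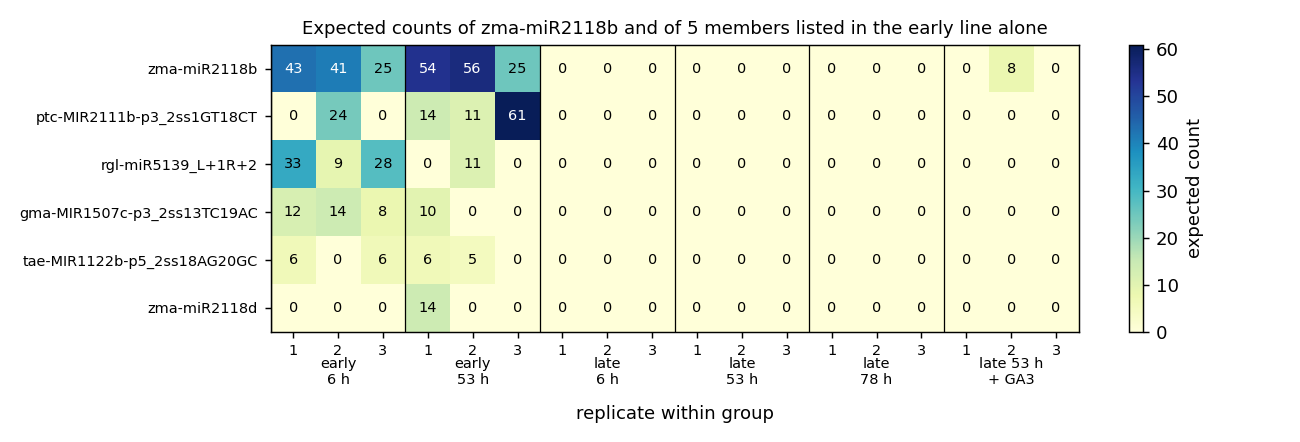
Expected counts of zma-miR2118b and of 5 members listed in the early line alone (rows) in the 18 libraries (columns, by group and replicate); colour and number both give the count. zma-miR2118b reads 25 to 56 in the 6 early-line libraries, and its single late-line value above 0 is 8 counts with GA3. The other 5 rows were picked as listed in the early line alone, so their late-line columns are empty by choice. The 16 members listed in the late line alone are not shown.

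GA3 was compared with the untreated late line at 53 h. None of the 28 passed in edgeR's test, as none of all 221 did (0.00%), and 3 of the 28 had an unadjusted p under 0.05, against 4.52% of all 221. DESeq2 called 0 of them as well. mtr-MIR2592bj-p3_2ss12TC19AT had the larger counts of these 3, with 9, 28 and 0 counts without GA3 and 133, 253 and 70 with it. Scaled, the untreated libraries held at most 77.8 CPM and the treated ones at least 246 CPM, so the groups did not overlap, and the log2 difference was 3.79 (SE 1.58, adjusted p = 0.984 by edgeR). It was called by edgeR without the low-count filter (adjusted p = 0.0279), and without untreated replicate 2 the estimate was 5.39 (adjusted p = 1.00 by edgeR).

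mtr-MIR2603-p3_2ss9AC17AC was listed at 0 in the 3 untreated libraries and at 13, 31 and 0 counts with GA3 (edgeR adjusted p = 0.984). The last was zma-miR2118b, through its single library. The median log2 difference was 0.56 for the 28 and 0.16 for all 221, and 17 of the 28 estimates were above 0 and 8 below. The 28 include overlapping fragments, so their signs are not independent, and the share above 0 among all 221 is not given here.

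Along the early line, from 6 h to 53 h, none of the 28 passed, against 2.26% of all 221 in either direction, and 2 had an unadjusted p under 0.05 (14.0% of all 221). DESeq2 called 1. The lowest p belonged to ptc-miR6478_R-1, with counts of 65, 64 and 193 at 6 h and of 0, 20 and 0 at 53 h. That is 468 ± 290 CPM against 33.5 ± 58.0 CPM (SD, n = 3 each), with no overlap, and a log2 difference of -3.71 (SE 1.20, adjusted p = 0.132 by edgeR). DESeq2 called it, with an adjusted p of 0.0159, and so did edgeR without the low-count filter, with 0.0442. Without replicate 2 at 53 h, the only 53 h library with counts, edgeR gave 0.00406 against a group at 0, and without each of the other 5 libraries it gave 0.210 to 0.481. The log2 difference was -2.96 without replicate 3 at 6 h and -3.07 without replicate 3 at 53 h. ptc-miR6478_R-2, 1 base shorter, measured 245 ± 139 CPM at 6 h and 56.8 ± 49.5 CPM at 53 h.

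In the late line, 0 of the 28 passed from 6 h to 53 h (2.26% of all), from 53 h to 78 h (0.00% of all) or from 6 h to 78 h (6.33% of all) in edgeR's test. An unadjusted p under 0.05 was reached by 1 of them from 6 h to 53 h (9.50% of all), 1 from 53 h to 78 h (8.60%) and 2 from 6 h to 78 h (17.6%), and DESeq2 called 0 in each. osa-miR5072_L-4 had the lowest p from 53 h to 78 h, with 187, 103 and 139 CPM at 53 h and 152, 281 and 782 CPM at 78 h, groups that overlap (log2 difference 1.49, SE 0.70, adjusted p = 0.454 by edgeR). Without replicate 3 at 78 h the difference was 0.61. smo-MIR1103-p3_1ss10CT_1 had no listed count at 78 h in any of 3 libraries, and 18, 9 and 0 counts at 53 h. bdi-miR5054_1ss10TA had no listed count at 53 h in any of 3 libraries, and 0, 8 and 15 counts at 78 h.

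The change from 6 h to 53 h was also compared between the lines. By edgeR's interaction test 0 of the 28 passed (0.00% of all 221), 1 had an unadjusted p under 0.05 (7.69% of all), and DESeq2 called 0. That 1 was mtr-MIR2603-p3_2ss9AC17AC, listed at 0 in the early line at 6 h and with 8, 8 and 9 counts at 53 h, while the late line had 0, 0 and 9 at 6 h and was listed at 0 at 53 h (adjusted p = 0.528).

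The family with the most sequences was miR1103, with 12. All 12 fall inside 1 run of 23 bases, tgggtGACCTCCTGGGAAgtcct, where the capitals mark the 13 bases they have in common. Their first bases lie at positions 1 to 6 of the run. As background, this run belongs to the plant 5S ribosomal RNA, whose genes stand in tandem arrays. Of their 23 entries, 22 lie on chromosome 2 and 1 on chromosome 1. Among all 63 sequences, 42 had 2 listed places and 0 had more. The listed places may therefore be a part of those that match, and the gaps between them depend on which were listed. A stretch with 18 of them is chr2:227638059-227653409, and the distances between neighbouring shared cores there are whole multiples of a repeat of 318.5 to 320 bases. The other 4 on chromosome 2 lie in chr2:228058305-228073706.

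Summed over 8 sequences that remain after merging, miR1103 measured 594 ± 366 CPM in the early line at 6 h, 397.5 ± 190.1 CPM at 53 h, 259 ± 238 CPM in the late line at 6 h, 288 ± 163 CPM at 53 h, 228 ± 137 CPM at 78 h and 736 ± 426 CPM with GA3 (SD, n = 3 each). The treated libraries, from 390 to 1211 CPM, overlapped the untreated late line at 53 h, from 116 to 440 CPM. The most abundant of them, smo-MIR1103-p3_2ss8CT18AT, was listed in all 18 libraries and measured 160 CPM on average over the groups.

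A further 8 sequences, named for miR7761, miR7499, miR2603, miR2592, miR2118e and miR1858b, lie in a stretch of chromosome 10 and a stretch of chromosome 2, and 6 of them lie in both. On chromosome 10 the entries run from chr10:35064110-35073681 and on chromosome 2 from chr2:157586811-157590929. Here too at most 2 places are listed per sequence, so further copies may be missing and the order holds for the listed places alone. The order of the shared entries is the same in both, apart from bdi-MIR7761-p5_2ss1GC18CG, which stands first on chromosome 2 and last among the members on chromosome 10, where bdi-MIR7761-p5_2ss17CG18AG stands first. mtr-MIR2603 begins 875 bases after the first entry in each, and mtr-MIR2592bj begins 3991 bases after it on chromosome 10 and 3992 on chromosome 2. As background, the mtr-MIR2603 sequence belongs to plant 18S ribosomal RNA and the mtr-MIR2592bj sequence to 25S ribosomal RNA, which one repeat unit encodes in that order. osa-MIR2118e-p3_2ss13TA19CT and mtr-MIR2592ay share 1 precursor there.

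Their summed level was 802 ± 760 CPM in the early line at 6 h, 1572 ± 960 CPM at 53 h, 520 ± 637 CPM in the late line at 6 h, 219 ± 111 CPM at 53 h, 650 ± 467 CPM at 78 h and 946 ± 425 CPM with GA3 (SD, n = 3 each). The late line at 53 h, from 147 to 347 CPM, was below the early line at 53 h, from 653 to 2568 CPM, and below the treated libraries, from 524 to 1374 CPM, without overlap. mtr-MIR2592bj had the highest mean of them at 53 h in the early line, but only through replicate 3. In replicates 1 and 2 there, osa-MIR2118e-p3_2ss13TA19CT was higher, at 737 and 412 CPM. mtr-MIR2592bj measured 449, 161 and 1380 CPM in the early line at 53 h, against 14.9, 77.8 and 0 CPM in the late line (log2 difference -4.27, SE 1.62, adjusted p = 0.0879 by edgeR). DESeq2 called that difference, with an adjusted p of 0.0109, and so did edgeR on the 2 groups alone, with 0.0485, and without the low-count filter, with 0.000455. With single libraries left out it was not called by edgeR (adjusted p from 0.105 to 0.231), and the log2 difference ran from -3.10 without early-line replicate 3 to -6.00 without late-line replicate 2.

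**Figure D4:**
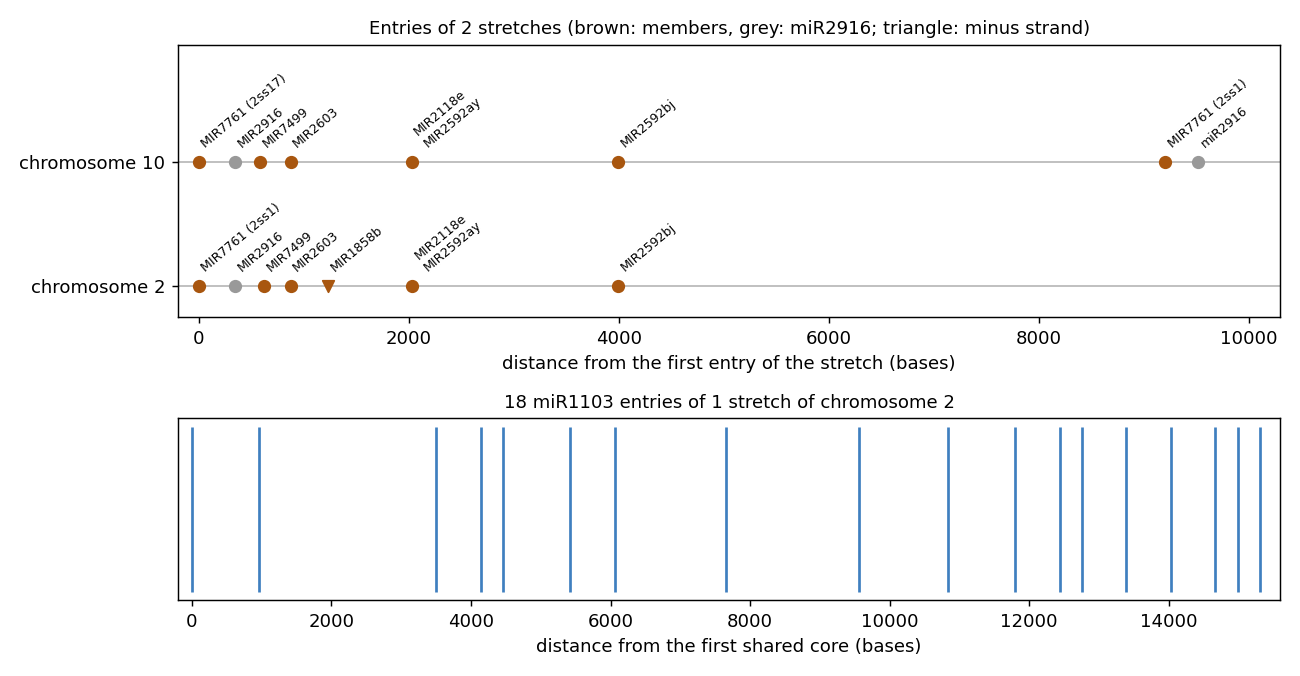
Upper panel, entries of the stretches on chromosomes 10 and 2 by distance in bases from the first entry (horizontal axis); members are brown, miR2916 entries grey, and a triangle is a minus-strand entry. Lower panel, the shared 13-base core of the 18 miR1103 entries of 1 stretch of chromosome 2; the lines stand whole multiples of a repeat of 318.5 to 320 bases apart.

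The 4 miR6478 sequences share a seed and begin with the same bases. As background, they read as the 5′ end of plant tRNA-Tyr, and the miR8175 sequences as the 3′ end of plant tRNA-Asp. Together the miR6478 sequences measured 90.3 ± 95.8 CPM in the early line at 53 h, from 0 to 191 CPM, below the late line at 53 h with 605 ± 58.6 CPM, from 567 to 672 CPM. At 6 h the early line averaged 714 CPM and the late line 1070 CPM, and the late line averaged 301 CPM at 78 h and 310 CPM with GA3. Between the lines at 53 h, ptc-miR6478_R-2 differed by 2.58 on the log2 scale (SE 1.02, adjusted p = 0.0954 by edgeR), and ptc-miR6478_R-1 by 2.78 (SE 1.16, adjusted p = 0.102). DESeq2 called both, with adjusted p of 0.0232 and 0.0354.

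The 4 miR8175 sequences measured between 382 and 880 CPM in sum over the 6 groups, and their groups overlapped throughout. ath-miR8175_L-2 was listed in all 18 libraries, from 62.4 to 936 CPM, and ath-miR8175_L-1R-1 reached 600 CPM in the same library, the late line at 6 h in replicate 3. Among the 63 sequences, 4 end in CCA, among them ath-miR8175_L-2, osa-miR5072_L-4 and bdi-miR5054_1ss10TA.

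**Figure D5:**
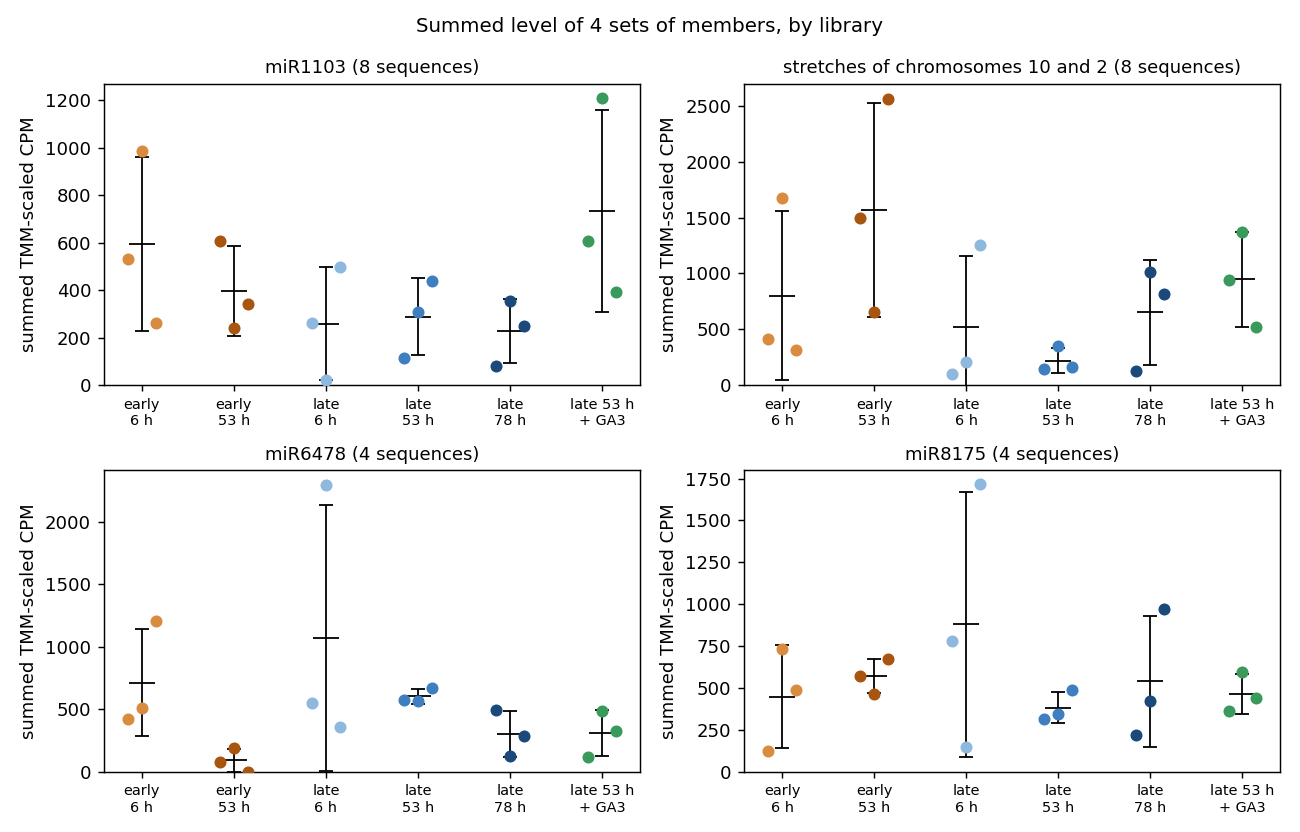
Summed TMM-scaled CPM (vertical axis, from 0) of 4 sets of members in the 6 groups; points are libraries, bars the mean and SD of 3. The ribosomal stretches are lowest in the late line at 53 h (219 CPM), and miR6478 is lowest in the early line at 53 h (90.3 CPM).

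Of the remaining abundant members, osa-miR5082_R-1_1ss1TC measured 290, 586 and 475 CPM with GA3 and 455, 456 and 0 CPM in the untreated late line at 53 h, so the groups overlapped. ptc-MIR6424-p3_1ss2GC reached 318 counts, or 1301 CPM, in replicate 1 with GA3 and at most 137 CPM in any other library. tae-MIR1122a-p5_2ss19AG21AC measured 107, 110 and 101 CPM in the early line at 53 h and 21.5, 0 and 0 CPM in the late line at 53 h. Neither of the 2 tested sequences named in wheat or Brachypodium, of 5 in all, passed in any comparison, and neither did the 2 tested of 4 from conserved families with a known target. These lists had medians of -2.65 and -3.66 on the log2 scale at 6 h, late over early line, where that of all 221 was -0.53; the fitted values of sequences listed at 0 in a group depend on the model and give no bound.

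In the authors' deposited degradome table, 61 of the 63 sequences had predicted alignments, 13380 in all, and 1059 of these had degradome reads at the cleavage position. Category 0, the sites where the reads are the highest peak on the transcript, held 3 of the 1059 (0.283%), against 1052 of 3615 (29.1%) for the other named families in the authors' deposited table. Category 1 held none. Overlapping sequences and transcript isoforms share reads, so these sites are not independent.

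By the authors' deposited table, the 3 sites were 1 of ath-miR8175_L-1R-1, at position 362 of transcript MSTRG.1812.1 with 333 reads and a p-value of 0.449, and 2 of tae-MIR1122a-p5_2ss19AG21AC, on isoforms MSTRG.19418.9 and MSTRG.19418.12 with 3 reads and a p-value of 0.0470 each. For zma-miR394a-5p the authors' deposited table lists 39 alignments, of which 15 had reads, all in category 2. Among these, 6 had an alignment score of 0, which means no mismatch penalty, among them Zm00001d042309_T001 at position 1180 and Zm00001d011994_T001 at position 1153, both annotated there with protein binding, and each had 13 reads with a p-value of 0.900. All 6 carry this same read number and p-value, so whether the 2 genes have separate reads cannot be told. The deposited table by the authors gives zma-miR2118b 2 predicted transcripts, Zm00001d043199_T001, annotated with ADP binding, and Zm00001d038128_T008, and neither had reads. The degradome library stands in no group, so none of these sites can be compared between lines.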

How the data were processed

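Small RNA libraries of 18 embryo samples were analysed from the authors' deposited table, and 1 degradome library from another. Per the file headers, the authors give expected counts per precursor entry, dividing the reads of a sequence over its entries, with the hairpin length and folding free energy of each (other values). The sources used here name no aligner, genome build or annotation. For the degradome, the authors deposited read counts per cleavage site, a category, a p-value that is not described as adjusted, and an alignment score (a penalty). Of these tables, 9 and 5176 lines were empty, so rows may have been left out of both.

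Expected counts were summed per sequence, rounded and fitted with edgeR 4.0.16 (quasi-likelihood F test, TMM scaling, minimum count of 10, all 18 libraries in 1 model, two-sided, Benjamini-Hochberg over 221 sequences, threshold 0.05) in R 4.3.3. DESeq2 1.42.0, other scaling, other filters, the compared groups alone, a replicate block and leaving out each library were alternatives. Of 58 sequences, 19 are named in full: those called, the 12 most abundant, maize names that passed the low-count filter, the 2 lowest p per test and the top 2 per family list. In addition, zma-miR2118d, osa-MIR2118e-p3_2ss10CA18GT, gma-miR482b-3p, gma-MIR1507c-p3_2ss13TC19AC and tae-MIR1122b-p5_2ss18AG20GC were added after their values were seen. So were gma-MIR1507c-p3_2ss11TC17AC and gma-MIR1507c-p5_2ss13TC19AT. The members and lists were chosen with earlier results of these data known. The scripts were tested on simulated data. Replicate numbers are from the labels, and the main tests did not pair libraries by them. Same-numbered libraries deviated together in every pair only between the late line at 53 h and 78 h (correlations of 0.437, 0.184 and 0.295). The replicate block, which pairs same-numbered libraries, called 0 members between these groups, as the unpaired test did. CPM intervals cover the spread between 3 replicates, and the sum of listed counts limits the precision. No sequence tables of microRNAs other than the deposited one were used here.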

Additional observations from a re-analysis of the deposited data

How the results depend on the processing

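Against 1 member called between the lines at 6 h, library totals and the compared groups alone each gave 2 and the replicate block gave 0, and leaving out single libraries gave 0 to 0. At 53 h, against 1, no low-count filter and DESeq2 each gave 4, the compared groups alone 3, and single libraries left out 0 to 2. Against 0, the unfiltered fit gave 1 for GA3, for the early line, and for the late line both from 6 h to 53 h and from 53 h to 78 h; DESeq2 gave 1 for the early line; and leaving out single libraries gave 0 to 1 for the early line and for the line-by-time test. The other late-line and GA3 counts stayed at 0 when single libraries were left out. The share of all sequences called under each alternative is not given here, so these counts show nothing particular to the members. With the replicate block, in which same-numbered libraries are paired, zma-miR2118b at 6 h had an adjusted p of 0.0627 by edgeR, and the numbers paired no libraries there; no other call changed with it. The GA3 estimate of zma-miR394a-5p was -0.091 without untreated replicate 1, -0.034 without treated replicate 2 and -0.047 without treated replicate 3, within a range of -0.09 to 0.30 (log2) over the 6 libraries left out in turn. Counting 1 entry per sequence in place of their sum, the members' share was 3.46% and 4.35% in the early line at 6 h and 53 h, 1.55% (6 h), 2.01% (53 h) and 1.65% (78 h) in the late line, and 2.36% with GA3. Leaving out single libraries, it ran from 1.54% to 2.09% and from 1.96% to 2.56% in the early line at 6 h and 53 h. In the late line it ran from 0.882% to 1.02% at 6 h, 1.06% to 1.46% at 53 h and 0.882% to 1.13% at 78 h, and with GA3 from 1.19% to 1.39%. Degradome sites of category 0 alone numbered 3, as with category 1. The cause of these shifts was not tested. Libraries with small totals list fewer sequences, and counts near the smallest listed value carry little weight.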
